A study of Mus musculus with 2 samples.

Results

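The lecticans, their link proteins and the brain tenascins were described in polyadenylated RNA from mouse hippocampus, as 10 genes of 55536 and 40 annotated transcripts of 141862. Members were taken by symbol and gene identifier: Acan, Bcan, Ncan and Vcan for the lecticans, Hapln1 to Hapln4 for the link proteins, and Tnr and Tnc for the tenascins. All 10 genes had a row in both libraries, and 9 of them held enough reads for a comparison between the libraries. The series holds 1 group of 2 libraries, labelled biological replicates 2 and 1, from mice of strain B6NCrl, also labelled C57BL/6, aged 6 months. The animals carried no labelled treatment, and there was no second condition. One label calls the animals male while the sex field reads as not collected, and the 2 tissue samples share 1 donor identifier. Nothing in the labels says that the tissue came from separate animals, so the spread between libraries may be technical. The tissue label reads layer of hippocampus, and no layer or field is named.

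Lecticans are large proteoglycans that bind hyaluronan at one end and tenascins at the other, and carry chondroitin sulfate chains between them. Link proteins clamp the lectican to the hyaluronan chain, and tenascin-R ties lecticans together. In the brain this assembly forms the diffuse matrix between cells and, where it is condensed around the cell bodies and proximal dendrites of certain neurons, such as parvalbumin interneurons and CA2 pyramidal neurons, the perineuronal nets that limit plasticity in the adult.

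The authors deposited values from 2 quantification programs run on the same reads, and values are from the first unless the second is named. An expected count is the number of reads that the first program assigned to a gene or transcript, and it need not be whole. Total expected counts were 39499357 in replicate 2 and 38921671 in replicate 1. In bulk tissue, fewer cells of a type and less RNA per cell cannot be told apart. The libraries stood apart in choroid plexus markers: all 8 genes of that list were called lower in replicate 2, and their TPM summed to 132 in replicate 2 and 15286 in replicate 1, most of it transthyretin (Ttr). TPM is a transcript level scaled for length and library depth. The 10 hippocampal neuron markers were all above 1 TPM in both libraries, led by Camk2a, with a median of 96.0 TPM.

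Versican and brevican are the members whose splice forms were compared, so the sequences that tell these forms apart are shown first. They come from the GENCODE M21 transcripts, whose coordinates are on mm10, and both genes lie on the minus strand. Vcan spans chr13:89655312-89742509. Its 2 largest coding exons carry the attachment sites for chondroitin sulfate: GAG-alpha at chr13:89702918-89705797, with 2880 bases, and GAG-beta at chr13:89688285-89693501, with 5217 bases. The form V0 holds both exons, V1 holds GAG-beta alone, V2 holds GAG-alpha alone and V3 holds neither. Each line below gives 15 bases on either side of the exon junction that marks the form, 5′ to 3′, with the right-hand exon in capitals.
V0, Vcan-203, 3354 amino acids, GAG-alpha joined to GAG-beta: gagaaaacaagacagGTCGATTGAGTGATA
V1, Vcan-206, 2394 amino acids, exon 6 joined to GAG-beta: cctactgctttaaacGTCGATTGAGTGATA
V2, Vcan-202, 1615 amino acids, GAG-alpha joined to the exon after GAG-beta: gagaaaacaagacagGACCTGATCTCTGCA
V3, Vcan-201, 655 amino acids, exon 6 joined to the exon after GAG-beta: cctactgctttaaacGACCTGATCTCTGCA

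Another complete coding transcript, Vcan-205, ends early. It runs past the end of exon 6 into the following intron, where 65 further bases lead in frame to a stop codon after 368 codons. This transcript lacks both attachment exons and also the C-terminal part that the other forms share, so it was kept apart from V3. Its line starts with the last 15 bases of exon 6, and capitals mark the stop codon.
Vcan-205, read-through of exon 6: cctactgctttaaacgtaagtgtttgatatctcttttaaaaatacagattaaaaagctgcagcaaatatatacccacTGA

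Bcan spans chr3:87987531-88000230. Its complete coding transcript Bcan-201 joins exon 8 to exon 9 and encodes 883 amino acids. The transcript Bcan-203 runs past the end of exon 8 instead, where 68 further bases lead in the frame of Bcan-201 to a stop codon after 645 codons. M21 types Bcan-203 as a retained intron and gives it no coding sequence. A short brevican form that ends in a glycosylphosphatidylinositol anchor has been described in rat brain. In the first line below capitals mark exon 9, and in the second the stop codon.
Bcan-201, junction of exons 8 and 9: tggctccctcatcagGTGACTGTATCCCCA
Bcan-203, read-through of exon 8: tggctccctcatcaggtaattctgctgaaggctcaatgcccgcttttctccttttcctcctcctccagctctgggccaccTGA
In both read-through lines the first 2 bases past the exon are gt, the letters with which most introns begin.

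**Figure D1:**
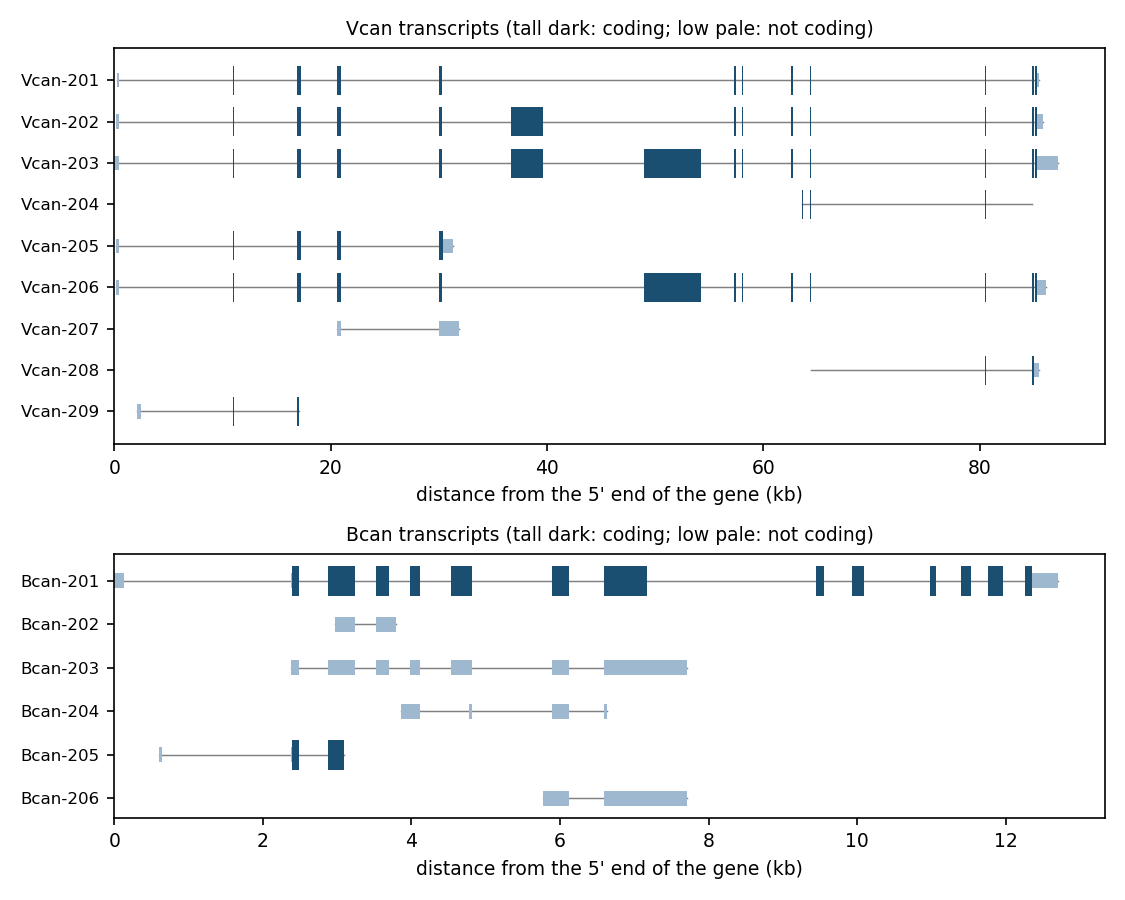
Exons of the 9 Vcan and 6 Bcan transcripts of M21, drawn to scale as distance in kb from the 5′ end of each gene, with coding exons tall and dark and non-coding exons low and pale. The 2 wide Vcan exons are GAG-alpha and GAG-beta, Vcan-205 stops before both, and Bcan-203 ends in a widened exon 8.

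Gene levels spanned from brevican to aggrecan, and 7 of the 10 genes reached 1 TPM in both libraries. Brevican (Bcan), a lectican of the adult brain matrix made by astrocytes and neurons, was highest at 175 TPM in replicate 2 and 147 TPM in replicate 1, a mean of 161 ± 20.1 (SD, n = 2). Neurocan (Ncan), a lectican that is cut in the maturing brain, followed with 96.0 and 111 TPM, a mean of 103 ± 10.3. Bcan stood above Ncan in each library, with a ratio of TPM of 1.83 in replicate 2 and 1.33 in replicate 1. Among 17300 genes with a mean count of at least 10, 94.8% had a lower mean TPM than Bcan and 91.7% a lower one than Ncan.

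Versican (Vcan), a lectican of developing matrix, of white matter and of the node of Ranvier, was much lower, at 2.38 TPM in replicate 2 and 2.24 TPM in replicate 1, with a mean of 2.31 ± 0.0990. Aggrecan (Acan), the lectican most often used to mark perineuronal nets, was the lowest member with 0.36 and 0.24 TPM, from 66 and 45 expected counts. Of the same 17300 genes, 30.2% lay below Vcan and 5.45% below Acan. The level of Bcan over that of Acan was 487 in replicate 2 and 613 in replicate 1.

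As shares of their summed TPM, the 4 lecticans divided into Bcan with 64.0% in replicate 2 and 56.5% in replicate 1, and Ncan with 35.02% and 42.5%. Vcan took 0.868% and 0.861%, and Acan 0.131% and 0.0922%. The sum itself was 274 TPM in replicate 2 and 260.2 in replicate 1, so it varied less than its 2 main parts. By expected counts, which are not divided by length, the order turned round: Ncan held 56.4% and 63.9% of lectican reads, and Bcan 42.6% and 35.2%. The single Ncan transcript has 7195 bases and Bcan-201 has 3141.

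Among the link proteins, Hapln4 (Bral2), which binds at perineuronal nets and at inhibitory synapses, was highest at 46.3 TPM in replicate 2 and 40.9 TPM in replicate 1, a mean of 43.6 ± 3.81 (SD, n = 2). Hapln2 (Bral1), a link protein of the nodes of Ranvier made by oligodendrocytes, had 12.7 and 10.2 TPM, a mean of 11.5 ± 1.80. Hapln1 (Crtl1), the link protein of cartilage and of cortical nets, had 6.32 and 7.80 TPM, a mean of 7.06 ± 1.05. Hapln3, known mainly from tissues outside the brain, had 1.71 and 0.55 TPM, a mean of 1.13 ± 0.820, the widest spread for its level. The library values of these 4 genes did not overlap, and Hapln4 was 69.0% and 68.8% of their summed TPM. Hapln2 was 19.0% and 17.1%, Hapln1 9.43% and 13.1%, and Hapln3 2.55% and 0.926%.

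Tenascin-R (Tnr), the tenascin of the mature nervous system, had 54.7 TPM in replicate 2 and 43.9 TPM in replicate 1, a mean of 49.3 ± 7.67 (SD, n = 2). Tenascin-C (Tnc), a tenascin of development, injury and neurogenic niches, had 0.40 and 0.51 TPM. The level of Tnr was 137 times that of Tnc in replicate 2 and 86.0 times in replicate 1.

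In the order of gene TPM, from Bcan through Ncan, Tnr, Hapln4, Hapln2, Hapln1, Vcan, Hapln3 and Tnc to Acan, each gene stood above the next in every pairing of libraries, except that the values of Tnr and Hapln4 overlapped. The second program kept this order, and there Tnr lay above Hapln4 without overlap, at 48.8 and 39.9 TPM against 35.1 and 31.6 TPM. It gave 9 of the 10 genes a lower mean level than the first program, all but Hapln1, and the gap of Bcan was a log2 ratio of 0.42 in replicate 2 and 0.37 in replicate 1, with 0.1 TPM added to both levels. A lower level in the second program was common, since 19 of the 20 gene lists described below also had a lower median there.

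**Figure D2:**
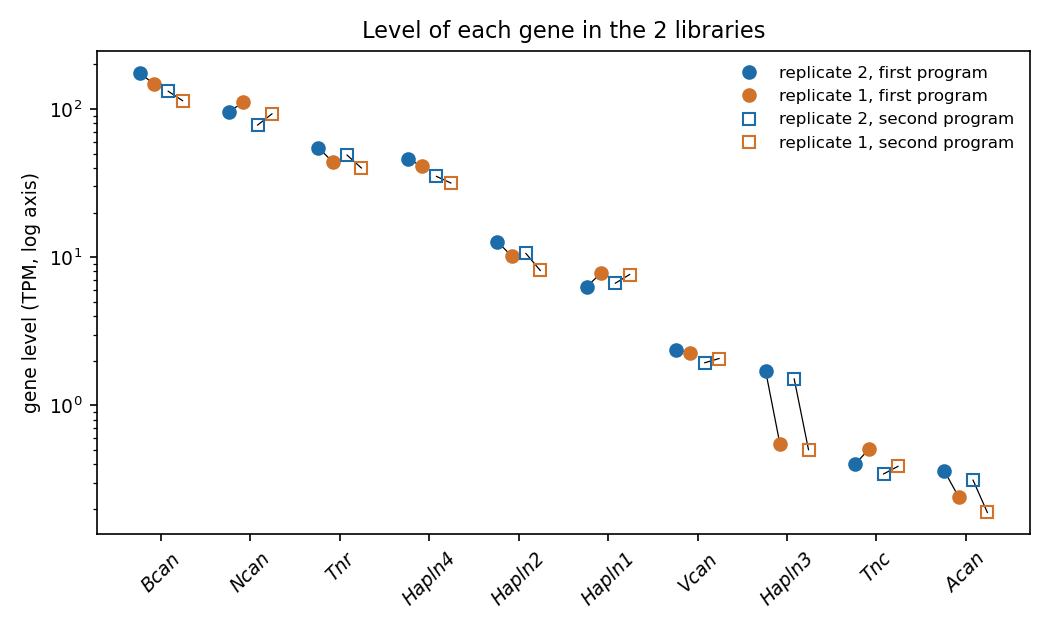
Gene level in TPM on a log axis for the 10 members, with filled circles for the first program and open squares for the second, and blue for replicate 2 left of orange for replicate 1. Bcan is highest at 175 and 147 TPM, Acan is lowest at 0.36 and 0.24 TPM, and the widest gap between the libraries is that of Hapln3.

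The 4 lecticans and 4 link proteins lie in the mouse genome as 4 neighbouring pairs, each of 1 lectican and 1 link protein, with 0 coding genes between the partners. Acan, at chr7:79053483-79115099 on the plus strand, and Hapln3, at chr7:79115102-79131018 on the minus strand, face each other with 2 bases between their 3′ ends. Ncan, at chr8:70093085-70120873 on the minus strand, lies 2222 bases from Hapln4, at chr8:70083457-70090862 on the plus strand. Hapln2, at chr3:88021750-88027583 on the minus strand, lies 21519 bases from Bcan, and Hapln1, at chr13:89539796-89611652 on the plus strand, lies 43659 bases from Vcan. The tenascins lie on other chromosomes, Tnr at chr1:159523769-159931729 on the plus strand and Tnc at chr4:63959785-64047015 on the minus strand. The partners were not alike in level. Ncan had 2.08 and 2.71 times the TPM of Hapln4 in replicates 2 and 1, whereas Bcan had 13.8 and 14.4 times the TPM of Hapln2. In the other 2 pairs the link protein was the higher partner in both libraries.

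Much of the gene TPM of Tnr, Hapln1, Hapln2 and Hapln3 came from transcripts that encode no complete protein. A transcript was counted as complete where M21 types it as protein coding and marks neither end of its coding sequence as missing, which held for 19 of the 40. Over 11308 protein-coding genes at 1 TPM or more in both libraries, with at least 2 transcripts and a complete one, the complete transcripts' share of gene TPM had a median of 90.7%, with quartiles of 63.3% and 99.0%. Bcan, with 90.1% in replicate 2 and 90.9% in replicate 1, lay near that median. Hapln4, with 97.7% and 97.1%, and Vcan, with 100% and 95.1%, lay above it. The share of Vcan rests on Vcan-205, which ends early but is typed as protein coding, unlike Bcan-203. Vcan-205 alone held 69.3% of Vcan TPM in replicate 2 and 56.1% in replicate 1.

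Tnr lay far below it. Its complete transcripts, Tnr-201 and Tnr-202, held 20.8% of Tnr TPM in replicate 2 and 28.9% in replicate 1, and 6.55% of the 11308 genes had a lower share. They share one coding sequence of 1358 amino acids and differ outside it, with a long last exon in Tnr-202, so that Tnr-201 has 4424 bases and Tnr-202 has 12202. Most Tnr TPM was assigned to Tnr-205, a retained-intron transcript of 660 bases, with 62.2% in replicate 2 and 59.5% in replicate 1. A further 16.1% and 11.0% went to Tnr-204, an incomplete coding transcript of 837 bases. In reads the picture differed, since a short transcript needs few reads for a high TPM: Tnr-202 held 71.5% and 75.9% of the expected counts, and Tnr-205 held 13.1% and 9.54%. Tnr-205 has 184 bases that no other Tnr transcript shares.

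The direction of the library difference of Tnr was not the same for the gene and for its complete transcripts. The gene TPM was higher in replicate 2, but the summed TPM of the complete transcripts was 11.4 in replicate 2 and 12.7 in replicate 1. Such a change of direction occurred in 1781 of the 11308 genes, or 15.7%. At this level Tnr lay below Hapln4, which had 45.2 and 39.7 TPM, and no library values overlapped. Its excess over Tnc was 28.5-fold in replicate 2 and 24.9-fold in replicate 1.

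A second limit on Tnr is the antisense gene Gm38039, at chr1:159928390-159931726 inside the last exon of Tnr-202, all 443 of whose exonic bases are also bases of Tnr exons. Whether the counting used strand is not given in the sources used here, so the reads of the pair cannot be told apart. Gm38039 had 268 expected counts in replicate 2 and 755 in replicate 1, a log2 ratio of -1.50 (adjusted p = 2.56e-53, exact binomial test). Together with those of Tnr this gave 4458 and 4991 expected counts, a log2 ratio of -0.17, where Tnr alone had -0.02. Besides it, 7 annotated genes overlap a member and none held more than 21 expected counts in a library.

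Hapln1 was assigned in the same way. Its retained-intron transcript of 464 bases took 60.4% of Hapln1 TPM in replicate 2 and 58.3% in replicate 1 from only 38.4 and 43.4 expected counts. Its complete transcript, with 5715 bases and 356 amino acids, held 91.9% and 92.7% of the expected counts but 2.50 and 3.25 TPM. At the level of complete transcripts Hapln1 was 4.45% and 6.52% of link protein TPM, and Hapln4 was 80.5% and 79.7%.

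Hapln2 and Hapln3 were spread over several transcripts. The complete Hapln2 transcript, with 341 amino acids, had 59.4% of Hapln2 TPM in replicate 2 and 64.7% in replicate 1. A transcript typed as a target of nonsense-mediated decay had 19.6% and 17.0%, and a retained-intron transcript of 2338 bases had 9.58% and 18.3%. A second retained-intron transcript, of 521 bases, had 11.5% in replicate 2 and was listed at 0 in replicate 1. For Hapln3 a decay transcript had 46.8% of TPM in replicate 2 and 45.5% in replicate 1. The rest was shared by complete transcripts of 250 amino acids, with 35.1% and 27.3%, and of 359 amino acids, with 18.1% and 27.3%, all from 72 and 26 expected counts.

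Hapln4, Ncan and Acan were simpler. The complete Hapln4 transcript, with 400 amino acids, held 97.7% and 97.1% of its gene's TPM, Ncan has 1 transcript, and Acan-201, the complete aggrecan transcript of 2132 amino acids, held 72.2% of Acan TPM in replicate 2 and 79.2% in replicate 1. The rest of Acan went to the incomplete Acan-202, from 7.78 and 4.01 expected counts.

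Tnc was the least settled, with 83 expected counts in replicate 2 and 107 in replicate 1 and 4 complete transcripts, of which Tnc-201 was listed at 0 in both libraries. Tnc-204, with 2019 amino acids, held 92.5% of Tnc TPM in replicate 2 and 49.0% in replicate 1. Tnc-203, with 2110 amino acids, was listed at 0 in replicate 2 and held 51.0% in replicate 1. The second program gave Tnc-203 10.2% in replicate 2 and 44.1% in replicate 1. Tnc-202 had 7.5% in replicate 2 and was listed at 0 in replicate 1.

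**Figure D3:**
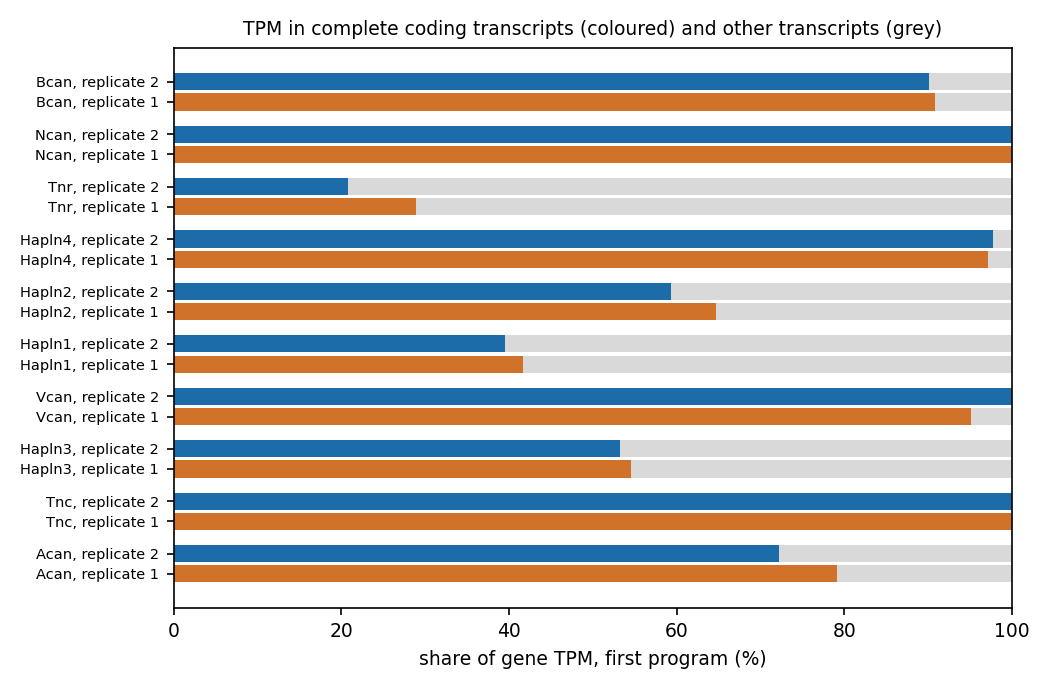
Share of each gene's TPM, in percent, assigned by the first program to complete coding transcripts (blue for replicate 2, orange for replicate 1) and to all other transcripts (grey). Tnr, at 20.8% and 28.9%, and Hapln1, at 39.6% and 41.7%, have the shortest coloured bars, while Ncan and Tnc are at 100%. The coloured bars of Vcan include Vcan-205, which ends early.

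For Bcan the full-length transcript dominated. Bcan-201 had 158 TPM in replicate 2 and 134 TPM in replicate 1, or 90.1% and 90.9% of Bcan TPM. The read-through transcript Bcan-203 had 16.5 and 13.05 TPM, or 9.41% and 8.88%, and the shares differed by less than 1 percentage point between the libraries. By expected counts Bcan-203 held 7.38% and 6.92%. The second program gave it 10.6% and 9.95% of Bcan TPM. The credibility intervals of its TPM in the deposited tables ran from 11.98 to 17.2 TPM in replicate 2 and from 10.05 to 13.8 TPM in replicate 1. The level of the interval is not stated in the sources used here. An interval need not hold the deposited TPM, since that of Bcan-201 in replicate 2 ran from 150.1 to 155.7 TPM, below its 158 TPM. The other 4 Bcan transcripts each held under 5% in both programs, and 2 of them were listed at 0 by the first program in both libraries. Bcan-203 has 0 bases of its own, because the stretch past exon 8 also lies in Bcan-206, which the first program listed at 0.

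For Vcan the short transcript Vcan-205 took the largest share of TPM. It had 1.65 TPM in replicate 2 and 1.25 TPM in replicate 1, or 69.3% and 56.1% of Vcan TPM. V2, the versican form known as the main one of the adult brain, had 0.41 and 0.46 TPM, or 17.2% and 20.6%. V0 had 0.31 and 0.33 TPM, or 13.03% and 14.8%. V1 stayed at 0.01 TPM in both libraries, from 2.45 and 3.61 expected counts, and V3 was listed at 0 in replicate 2 and had 0.08 TPM in replicate 1.

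Reads gave another order of the same forms. By expected counts V0 held 39.2% of Vcan reads in replicate 2 and 42.5% in replicate 1, Vcan-205 36.4% and 27.6%, and V2 23.6% and 26.4%. Among V0 to V3 alone, V2 was 56.2% and 52.3% of TPM, V0 42.5% and 37.5%, and V1 1.37% and 1.14%. The credibility intervals of V2, from 0.24 to 0.58 TPM in replicate 2 and from 0.25 to 0.62 TPM in replicate 1, overlapped those of V0, from 0.23 to 0.37 TPM and from 0.24 to 0.40 TPM. V2 and V0 were thus not separated within a library. By these intervals V1 was separated from both, since its upper bounds were 0.0418 TPM in replicate 2 and 0.0606 TPM in replicate 1.

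The split between Vcan-205 and V3 depended on the program and the library. In replicate 2 the second program gave Vcan-205 64.4% and listed V3 at 0, close to the first program's split. In replicate 1 it gave Vcan-205 30.2% of Vcan TPM and V3 17.4%, where the first program gave 56.1% and 3.59%. The V3 interval of the first program reached 0.51 TPM in replicate 2 and 0.54 TPM in replicate 1. All of this rests on 300 expected counts for the gene in replicate 2 and 294 in replicate 1. V1, V2, V3 and Vcan-205 have 0 bases that no other Vcan transcript shares. V1, V2 and V3 were thus divided by junctions and by combinations of shared exons. Vcan-205 differs, since its stretch past exon 6 lies in none of V0 to V3. That stretch also lies in Vcan-207, a retained-intron transcript that the first program listed at 0 in both libraries. Reads from it can be assigned only to Vcan-205 or Vcan-207. V0 has 1203 bases of its own, but they lie at the outer ends of its first and last exons, with none in GAG-alpha or GAG-beta. Reads from those ends can be assigned only to V0, whichever attachment exons their transcript held.

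**Figure D4:**
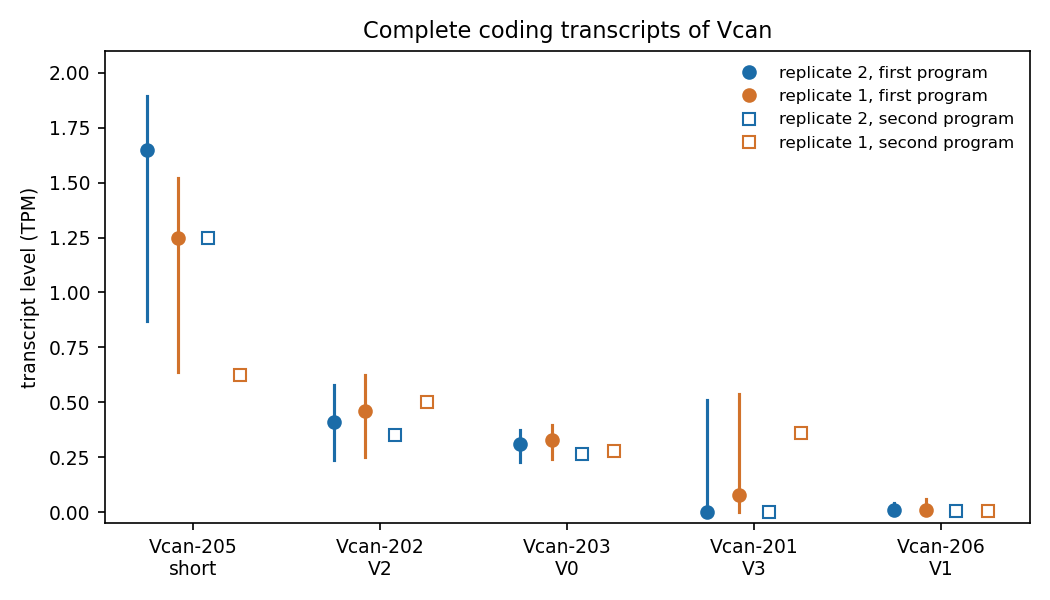
Level in TPM of the 5 complete coding transcripts of Vcan in replicate 2 (blue) and replicate 1 (orange), with circles for the first program, vertical lines for the deposited credibility intervals of its TPM, and squares for the second program. Vcan-205 lies highest at 1.65 and 1.25 TPM with wide intervals, the intervals of V2 and V0 overlap, and V1 lies at 0.01 TPM.

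The 9 members with enough reads differed between the libraries by less than the limit for a call, and Hapln3, with fewer reads, differed by more. Each gene's expected counts were compared between the libraries by an exact binomial test (two-sided), with library sizes scaled by the TMM method of edgeR, over 14078 genes with a mean count of at least 50, adjusted by the Benjamini-Hochberg method. A gene was called at an adjusted p under 0.05 and a log2 ratio of at least 1 in either direction. The libraries hold amplified reads with no molecular identifiers, so the test and its 95% intervals cover counting error only and compare these libraries, not conditions. Of the 9 members tested, 0 were called, where 2.41% of all genes tested were. At an adjusted p under 0.05 with no limit on the ratio 4 members passed, where 47.2% of all genes did, so passing at this depth was common. The biological coefficient of variation, as edgeR names it, was estimated at 16.6% over 16640 genes. It measures the spread between these 2 libraries, which may be technical.

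The 4 that passed were Bcan and Hapln4, higher in replicate 2, and Ncan and Hapln1, lower in it. Bcan had 15906 expected counts in replicate 2 and 13089 in replicate 1, a log2 ratio of 0.27 (95% interval 0.24 to 0.31, exact binomial test, adjusted p = 7.83e-57), and 28.4% of all genes tested lay at least as far from 0. Ncan had 21027 and 23759, a log2 ratio of -0.18 (-0.21 to -0.16, exact binomial test, adjusted p = 7.67e-40), and 44.1% lay as far. The 2 main lecticans thus differed in opposite directions, and their summed TPM differed by a log2 ratio of 0.08 with the 2 minor lecticans included.

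Hapln4 had 4925 expected counts in replicate 2 and 4236 in replicate 1, a log2 ratio of 0.21 (0.15 to 0.27, exact binomial test, adjusted p = 3.22e-11). Hapln1 had 471 and 594, a log2 ratio of -0.34 (-0.52 to -0.17, exact binomial test, adjusted p = 0.000452), and 20.6% of genes lay as far from 0. Of the genomic pairs, only Ncan and Hapln4 had both partners among these 4, and Ncan was lower and Hapln4 higher in replicate 2. Bcan and Hapln2 both lay above 0, as did Acan and Hapln3. Of these 4 genes Bcan passed, Hapln2 and Acan did not, and Hapln3 was not tested. Vcan, at 0.02, and its partner Hapln1 lay on opposite sides of 0. Among all genes tested, 50.8% were higher in replicate 2.

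The other tested members did not pass. Tnr, with 4190 and 4236 expected counts, had a log2 ratio of -0.02 with an interval from -0.09 to 0.04. Vcan had 300 and 294, a log2 ratio of 0.02 (-0.22 to 0.26), and Hapln2 had 509 and 464, a log2 ratio of 0.13 (-0.06 to 0.31). At the low counts of Acan and Tnc only large differences were detectable: the intervals ran from -0.02 to 1.13 for Acan, with 66 and 45 and a log2 ratio of 0.54, and from -0.81 to 0.05 for Tnc, with 83 and 107. Of all genes tested, 9.03% lay at least as far from 0 as Acan.

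Hapln3 was not tested, because its 72 expected counts in replicate 2 and 26 in replicate 1 average just under the minimum. Its log2 ratio was 1.44, with a 95% exact interval from 0.80 to 2.17, and 1.00% of all genes tested lay at least as far from 0. With no count minimum it was called (adjusted p = 3.23e-05, exact binomial test), and so were 3.38% of the 26855 genes then compared. The choroid plexus markers lay in the other direction, lower in replicate 2, and their part in this value was not tested.

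**Figure D5:**
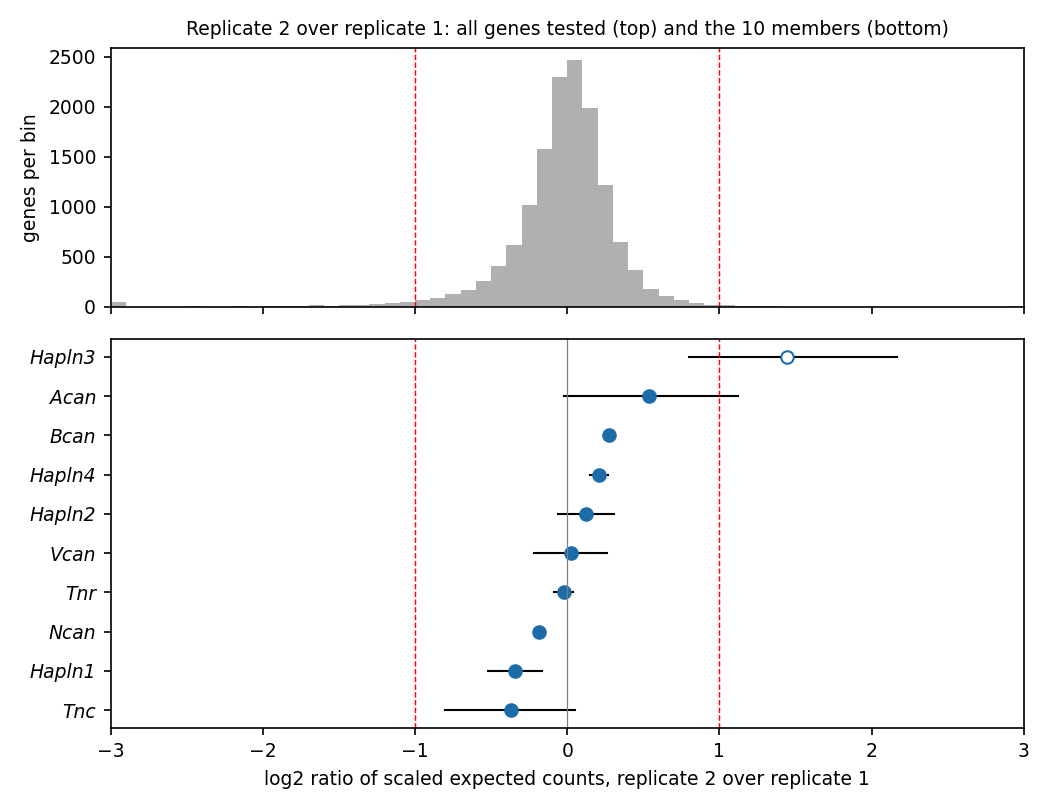
Log2 ratio of scaled expected counts, replicate 2 over replicate 1, for all 14078 genes tested (top, genes per bin of 0.1, with genes beyond the axis in the end bins) and for the 10 members (bottom, points with 95% exact intervals, Hapln3 open because it was not tested). Dashed lines mark the limits of 1 and -1, and all 9 tested members lie between them.

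Genes that build and cut the matrix around these members were described from lists, as counts and medians beside the 2.41% of all genes called. Highest and lowest genes of a list are ranked by the mean TPM of the 2 libraries, and neighbours in that order can change places within a library. Hyaluronan, the chain on which lecticans and link proteins assemble, is made by the Has enzymes from a sugar that Ugdh supplies. Ugdh had 10.1 TPM in replicate 2 and 12.98 TPM in replicate 1. The 3 synthases were all under 1 TPM in both libraries, with Has1 at 0.75 and 0.64 TPM, Has3 at 0.32 and 0.16 TPM, and Has2 listed at 0 in replicate 2 with 0.01 TPM in replicate 1. Of the 10 genes that break down or bind hyaluronan, 7 reached 1 TPM in both libraries. The list was led by Tnfaip6, which modifies hyaluronan, with 14.0 and 15.5 TPM, the hyaluronidase Hyal2 with 13.4 and 13.1 TPM, and the scavenger receptor Stab1 with 6.48 and 5.37 TPM, and its lowest mean was that of Stab2, at 0.03 and 0.19 TPM.

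The enzymes that start and extend chondroitin chains on lecticans were all present, with 12 of 12 at 1 TPM or more in both libraries and a median of 10.5 TPM. The highest was the chain polymerising factor Chpf, at 82.7 TPM in replicate 2 and 61.9 TPM in replicate 1. The linkage enzymes B3gat3, with 37.8 and 36.0 TPM, and B3galt6, with 18.9 and 18.1 TPM, followed, and the xylosyltransferase Xylt1 was lowest by its mean, with 1.91 and 2.41 TPM. None was called, although Chsy1, another polymerase, had a log2 ratio of -0.97, with 285 expected counts in replicate 2 and 557 in replicate 1. It was picked out after its value was seen.

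Of 10 enzymes that sulfate or epimerise the chains, 8 reached 1 TPM in both libraries. The 4-O-sulfotransferase Chst12 led, at 24.5 TPM in replicate 2 and 23.4 in replicate 1, followed by Ust with 17.4 and 15.4 TPM and, by its mean, the epimerase Dsel with 12.1 and 7.36 TPM. The 6-O-sulfotransferase Chst3 was at 0.16 and 0.13 TPM, and Chst13 was lowest at 0.04 TPM in replicate 2 and listed at 0 in replicate 1. None of these was called.

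Other chondroitin sulfate proteoglycans of the brain were all above 1 TPM, 9 of 9. App, which carries a chain in one splice form, had 354 TPM in replicate 2 and 398 TPM in replicate 1. Decorin (Dcn), a small proteoglycan of fibroblasts, had 75.8 and 72.1 TPM, and the receptor phosphatase Ptprz1, which also exists as the secreted phosphacan, had 49.7 and 42.9 TPM. By level Bcan and Ncan thus stood between App and Dcn. Cd74, which can carry a chain and is an antigen presentation chaperone, had the lowest mean, with 2.04 and 7.57 TPM, and was called lower in replicate 2 with a log2 ratio of -1.69 (adjusted p = 9.97e-21, exact binomial test).

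Receptors for chondroitin sulfate and tenascins reached 1 TPM in both libraries in 9 of 10 cases and held 0 called genes. Ptprs, the receptor phosphatase that binds chondroitin sulfate, had 195 TPM in replicate 2 and 149 TPM in replicate 1. Contactin-1 (Cntn1), a binding partner of tenascin-R, had 86.4 and 97.1 TPM, and Lingo1 had 54.0 and 51.1 TPM. Itga9, an integrin subunit that binds tenascin-C, was lowest with 0.48 and 0.28 TPM.

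The genes of a list named net-bound signals were all above 1 TPM, 7 of 7, and whether nets hold each product was not tested. Pleiotrophin (Ptn), a growth factor that binds chondroitin sulfate, had 211 TPM in replicate 2 and 226 TPM in replicate 1, Crtac1 had 67.6 and 66.4 TPM, and Tnfrsf21 had 41.9 and 37.3 TPM. Sema3a, a guidance factor bound in nets, had the lowest mean, with 1.12 and 1.07 TPM. Otx2, a homeoprotein that net-bearing neurons take up and that choroid plexus makes, was called lower in replicate 2, with 44 and 328 expected counts and a log2 ratio of -2.89 (adjusted p = 1.14e-53, exact binomial test). It belongs to the choroid plexus list too, whose 8 markers moved the same way.

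Of 13 proteases listed as cutting lecticans, directly or by activating other proteases, 6 reached 1 TPM in both libraries. Tissue plasminogen activator (Plat) had 10.7 TPM in replicate 2 and 10.5 TPM in replicate 1, Adamts1 6.97 and 11.8 TPM, and Adamts4, which cleaves brevican and aggrecan, 4.14 and 4.41 TPM. Plasminogen (Plg) had 0 reads in both libraries. Their inhibitors were higher in level, with Serpine2 at 348 and 331 TPM, Timp4 at 56.0 and 48.4 TPM and Timp2 at 26.5 and 25.7 TPM, while Timp1 was at 0.45 and 0.67 TPM. Neither list held a called gene.

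Among other matrix glycoproteins, 6 of 9 reached 1 TPM in both libraries and 0 were called. Sparcl1 (hevin), which astrocytes secrete at synapses, led, at 1089 TPM in replicate 2 and 963 in replicate 1, followed by Sparc with 138 and 132 TPM and, by its mean, Thbs4 with 8.68 and 8.07 TPM. The other tenascins were low, with Tnxb at 0.26 and 0.25 TPM and Tnn, the lowest, at 0.01 TPM in both.

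Markers of the neurons that bear nets were present in both libraries without a call. All 8 parvalbumin interneuron genes were above 1 TPM, with Pvalb at 40.7 TPM in replicate 2 and 40.6 TPM in replicate 1, Cplx1 at 189 and 155 TPM and Kcnc2 at 18.6 and 17.4 TPM, and the lowest was Erbb4 at 4.97 and 4.48 TPM. Of 7 CA2 genes 6 were above 1 TPM, led by Pcp4 with 429 and 482 TPM, Rgs14 with 65.6 and 67.0 TPM and Necab2 with 61.0 and 48.1 TPM, and Map3k15 was at 0.02 and 0.15 TPM. Astrocyte and oligodendrocyte markers, from cells that make several members, were above 1 TPM in 10 of 10 cases each, with median log2 ratios of -0.20 and -0.06, and held 0 called genes. Precursors of oligodendrocytes, microglia and vascular cells also held 0, with median log2 ratios of 0.08, 0.10 and 0.34. These medians lay in the direction of Bcan and Hapln4, higher in replicate 2. So did the medians of the parvalbumin, CA2 and hippocampal neuron lists, at 0.08, 0.24 and 0.19, and that of meningeal fibroblasts, at 0.28. The astrocyte, oligodendrocyte and choroid plexus medians lay the other way, the last at -4.15. Of 8 meningeal fibroblast genes 2, Ptgds and Slc6a13, were called higher in replicate 2 and 1, Igf2, lower. The part of cell composition in the differences of Bcan, Ncan, Hapln1 and Hapln4 was not tested.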

How the data were processed

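Polyadenylated RNA from 20 ng of hippocampal RNA was fragmented by Nextera tagmentation, per the labels. The deposited tables use mm10 and GENCODE M21, per the text beside them, while program names and versions are not given in the sources used. Per that text, the first program worked from alignments to the transcriptome and the second from the reads. The deposited tables of the first program hold, per the file headers, an expected count, TPM and FPKM per gene and transcript, with other columns for the bounds of a credibility interval of TPM. Those of the second program hold an estimated count and TPM per transcript, per the file headers, which were summed per gene here. Rows that name no gene, 26248 numbered and 97 spike-in or control rows, were left out; they took 1.64e-05% of reads in replicate 2 and 2.31e-05% in replicate 1.

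Expected counts were rounded to whole numbers for the exact test and for edgeR 4.0.16 in R 4.3.3, whose TMM factors were 0.995 in replicate 2 and 1.005 in replicate 1. Log2 ratios used a prior count of 0.5. All else ran in Python 3.11.15 (scipy 1.17.1, numpy 2.4.6, pandas 2.3.3, matplotlib 3.10.9). The exact test was tested on simulated data, whose counts varied by counting error alone. That cannot show how the test behaves where the spread exceeds counting error. With 1 group of 2 libraries, levels were described with no test. The text names all 10 members, their transcripts with at least 5% of gene TPM in either program, the coding transcripts of Vcan and Bcan, and of the 20 lists the 3 highest genes, the lowest and any gene called. For glial, vascular and regional marker lists it gives counts in place of most names. Likeness to other genes was not computed, since 2 libraries of 1 group give no pattern. The members and lists were chosen with earlier results of these data known. Alternatives tried were the second program, expected counts in place of TPM, FPKM, complete coding transcripts alone, other scalings, count and TPM minimums, thresholds and pseudocounts, and each library alone.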

Additional observations from a re-analysis of the deposited data

How the results depend on the processing

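No paired analysis was possible because the series holds 1 group of 2 libraries. With the second program's estimated counts, with no count minimum, or with a mean count of at least 10, an alternative chosen after seeing the data, the members called between the libraries were 1 in place of 0, and that gene was Hapln3 each time, since its mean count lies just under the minimum of 50 in the first program. By expected counts in place of TPM the shares were 38.9% for Bcan among lecticans, 81.0% for Hapln4 among link proteins, 32.0% for Vcan-205, 25.02% for V2 and 40.9% for V0 of Vcan, and 92.8% for Bcan-201 of Bcan. With the second program they were 65.6% for Hapln4, 47.3% for Vcan-205 and 88.0% for Bcan-201. Among complete coding transcripts alone Bcan-201 is 100% by construction, since it is the one such transcript of Bcan. For the count shares the division by length is the difference, and for the program differences the cause was not tested. In each library alone, the ranges were 7 to 8 members at 1 TPM or more, 56.5% to 64.0% for Bcan, 68.8% to 69.0% for Hapln4, 86.0 to 137 for Tnr over Tnc, 56.1% to 69.3% for Vcan-205, 17.2% to 20.6% for V2, 13.03% to 14.8% for V0 and 90.1% to 90.9% for Bcan-201. The other 31 values of the main results stayed within the spread between libraries or within 1.5 times the count, and of 70 values of single members and lists 27 moved further than that spread and 43 did not. With 2 libraries, each library alone always lies within 1 SD of their mean. The levels, shares and ratios of each library alone, which are among the values that stayed, therefore could not move by this rule. Counts, levels, shares and fold ratios cannot be negative, so only the program differences carry a sign. A pseudocount added to both levels cannot reverse that sign within a library, so the sign was no check. The library difference of Tnr, which is not among these values, had a log2 ratio of 0.32 by gene TPM, -0.16 by the TPM of complete transcripts and -0.02 by expected counts. A ratio between the libraries has no value without one of them. Depth limits Acan, Hapln3 and Tnc, with at most 107 expected counts in a library, and the transcript shares of Vcan, with about 300.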
